A study of Bos taurus with 129 samples.

Results

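Whole blood of beef steers on day 13 of a feeding study was compared between 2 supplement groups among the cattle labelled as having bovine respiratory disease (BRD). The comparison held the 7 day 13 libraries of the steers that carried the disease label Yes and received either AAC (4 animals, numbered 9, 21, 31 and 41) or COMBO (3 animals, numbered 16, 18 and 54), out of all the libraries made from 26 steers sampled on 5 days. Values are given below in that order of animals. AAC cattle received copper, manganese and zinc in feed as amino acid complexes, and cobalt as cobalt glucoheptonate. COMBO cattle received the same feed and an oral drench of trace minerals with selenium and vitamin E. The drench was given before shipment, on day 0 and alongside any treatment for illness. For its healthy cattle the paper reports no difference in total feed intake. It does report intakes of cobalt, copper, manganese and zinc that differed between AAC and COMBO. INR cattle, of which 7 had BRD, received sulfate sources of those metals in feed and serve here as a background. All steers were commercial crossbreds of unknown earlier history, and all were vaccinated against respiratory viruses and given doramectin on day 0. Their ages and the dates on which the 7 animals fell ill or were treated are not given in the sources used here, so that day 13 can lie before, during or after the illness of any of them. AAC animals 9 and 41 were labelled pen 8, AAC animals 21 and 31 pen 2, and all 3 COMBO animals pen 6, so the effect of the supplement cannot be told apart from that of the pen. Each library was a single blood sample of 1 animal.

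BRD is a disease complex of the airways and lungs in which viruses, bacteria and the stress of transport act together, and it is the commonest illness of newly received cattle. Blood RNA in such animals mixes the messages of neutrophils, monocytes, lymphocytes, platelets and immature red cells, and in a bulk sample fewer cells of a type cannot be told apart from less RNA per cell. Copper, zinc, manganese, cobalt and selenium serve as cofactors of antioxidant enzymes and of enzymes that use cobalamin, and zinc also holds the fold of many transcription factors. Immature red cells, the reticulocytes, still carry haemoglobin messages after they leave the marrow, and healthy cattle release few of them.

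Gene counts summed to 39771682, 39726803, 36169143 and 48974508 in the 4 AAC libraries and to 43208025, 34928094 and 54306034 in the 3 COMBO libraries. Expression is given as CPM, each gene's count relative to the library's total after scaling by the trimmed mean of M-values (TMM), and differences as log2 fold changes of AAC over COMBO with their standard errors. CPM does not correct for transcript length, so levels are compared between animals and not between genes. The animals were labelled as separate individuals. The p-values below come from a fit over 14 animals with BRD and their 5 days that has no term for animal, so repeat libraries of an animal enter its spread as if they were independent. Haemoglobin genes took 3.09, 6.84, 1.22 and 8.00% of all counts in the AAC libraries against 0.183, 0.112 and 0.504% in the COMBO libraries, a range that did not overlap. The 7 INR libraries of that day spanned 0.0398 to 3.98%. The 10 most abundant genes together held 5.76 to 11.6% of counts in AAC and 4.91 to 5.61% in COMBO.

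The first question was which genes differed between the 2 supplement groups among cattle with BRD. In the fit over 70 BRD libraries, 1096 of 18477 genes tested differed between AAC and COMBO on day 13 at a false discovery rate (FDR) below 0.10, or 5.93% of genes. With a correlation within animals, limma called 964 (5.22%), and 790 of the 1096 were among them. Of the 1096 genes, 416 were higher in AAC (2.25% of genes tested) and 680 lower (3.68%). Higher genes had a median log2 fold change of 1.01 and lower genes one of -0.70, while the median over all genes tested was 0.01. In 902 of the 1096 genes no AAC library overlapped a COMBO library, 314 higher and 588 lower, and over all genes tested 20.6% did not overlap, 9.76% with AAC above and 10.9% with AAC below. The count fell to 483, 231 and 370 without AAC animal 9, 21 or 31 and to 364, 197 and 625 without COMBO animal 16, 18 or 54, and was 992 without AAC animal 41. A core of 73 genes, 29 higher and 44 lower, passed in each of those 7 fits. Without AAC animal 31 most calls were higher in AAC, 228 against 142 lower. With AAC cattle of pen 2 alone against COMBO, 747 genes passed (274 higher, 473 lower), and with those of pen 8 alone 12 (8 higher, 4 lower). When the 7 libraries were fitted by themselves, 0.781% of 16388 genes passed, 69 higher and 59 lower.

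Part of these differences were there on arrival. On day 0, the day the cattle entered their pens, 2382 genes (12.9% of those tested) differed between the same 7 animals. Of the 1096 day 13 calls, 334 were called on day 0 with the same sign, which is 30.5% of the day 13 and 14% of the day 0 calls, and 1 with the opposite sign. The number called fell to 69 (0.373%) on day 28, 8 (0.0433%) on day 45 and 15 (0.0812%) on day 60. When the change from day 0 to day 13 was compared between AAC and COMBO, edgeR called 0 genes (0%), with 1466 at an unadjusted p under 0.05, DESeq2 called 36 and limma 168. The 14 pairs of libraries came from the same animals, and with animal as a block 219 genes passed, 70 with a more positive change in AAC than in COMBO and 149 with a more negative one. Of the 1096 day 13 calls, 49 were among those 219. Without COMBO animal 16 the unblocked comparison of changes called 416 genes, 282 higher and 134 lower.

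Summed red cell markers were higher in every AAC animal than in any COMBO animal, and 6 genes of the list passed. Of 22 tested erythroid and reticulocyte genes, those 6 (27%, where 2.25% of all genes tested were higher) were higher in AAC, 0 were lower, and 16 did not pass, with a list median of 2.49 against 0.01 over all genes. Their summed level was 31061, 73599, 12771 and 85436 CPM in the AAC libraries and 2075, 1235 and 4927 CPM in the COMBO libraries. All 4 AAC animals stood above all 3 COMBO animals, and animals 21 and 41 were far above animals 9 and 31. The 7 INR animals with BRD ranged from 528 to 40708 with a median of 6283 CPM, which overlapped both groups. On day 0 the sums were 7064, 886, 301 and 605 CPM in AAC and 377, 317 and 162 CPM in COMBO, so that each of the 7 animals had a higher sum on day 13, and the groups overlapped on day 0. HBA1, the alpha globin chain, made up 67.26% of the summed level, and CA1 was the list's gene listed at 0 in all 7 libraries.

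**Figure D1:**
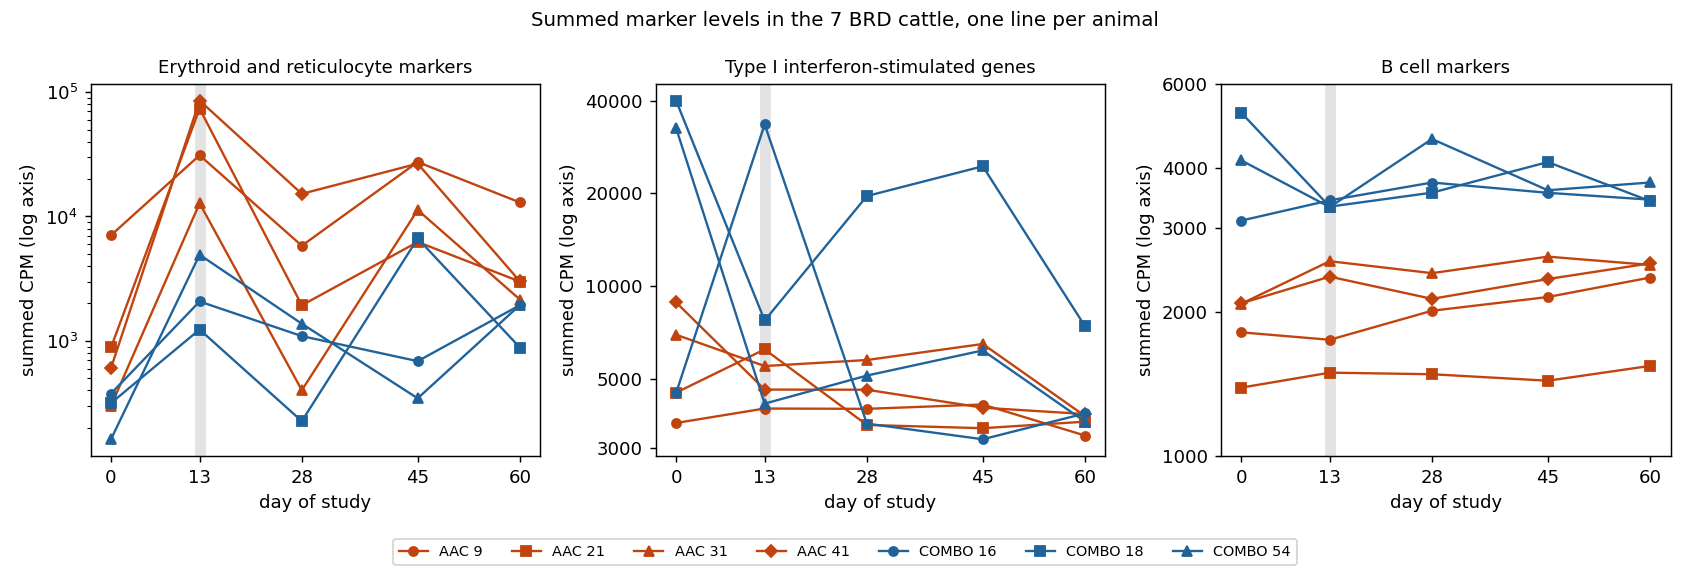
Summed CPM (log axis) of the erythroid, type I interferon-stimulated and B cell marker lists in each of the 7 BRD cattle by day of study, orange for AAC and blue for COMBO, with day 13 shaded. On day 13 the erythroid sums were 12771 to 85436 CPM in AAC and 1235 to 4927 CPM in COMBO, one COMBO animal stood apart in the interferon panel with 33463 CPM, and the B cell sums of the groups did not overlap.

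CA2, the carbonic anhydrase of red cells, was measured at 40.4, 69.98, 31.6 and 104.7 CPM in AAC and 6.59, 9.57 and 10.1 CPM in COMBO. It differed by 2.82 ± 0.61 (adjusted p = 0.0135) with no overlap, and on day 0 by 0.88 (adjusted p = 0.373). BLVRB, a biliverdin reductase of the heme breakdown path, read 45.98, 65.6, 34.98 and 99.8 CPM against 18.5, 22.3 and 15.9 CPM and differed by 1.70 ± 0.42 (adjusted p = 0.0253). Both genes passed in all 7 fits that left out an animal. The other 4 erythroid calls were less stable. ALAS2, the first enzyme of heme synthesis in red cells, stood at 335, 895, 171 and 1031 CPM in AAC and 22.1, 33.8 and 39.2 CPM in COMBO (4.26 ± 1.39, adjusted p = 0.0788) and passed in 1 of those 7 fits. HBB, the beta globin chain, had 8707, 16775, 3199 and 24254 CPM against 479.6, 288 and 1327 CPM (4.24 ± 1.44, adjusted p = 0.0918), and its call was lost when any 1 of the animals was left out. GYPB, a glycophorin of the red cell surface, also passed in none of them (3.02 ± 0.99, adjusted p = 0.0823). DMTN, a protein of the red cell membrane skeleton, differed by 4.03 ± 1.22 (adjusted p = 0.0600) and passed in 2. HBA1 itself ran from 7518 to 56993 CPM in AAC and from 642 to 2785 CPM in COMBO, without overlap, and did not pass (4.51 ± 1.70, adjusted p = 0.127). Reads of HBA1 and its near-identical copy HBA may have been split between them in an uncertain way. In the fit with animal as a block, 0 of the 22 erythroid genes passed for the change from day 0.

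SLC25A39, the mitochondrial importer of glutathione, had the smallest p of all genes, at 149, 255, 117.4 and 272 CPM in AAC and 71.2, 73.8 and 81.05 CPM in COMBO (1.40 ± 0.24, adjusted p = 0.00507). Its difference on day 0 was -0.09 (adjusted p = 0.870), so that it lay apart by day 13 only, and with animal as a block its change differed by 1.46 ± 0.33 (adjusted p = 0.0515). The 2 animals with the highest haemoglobin shares, 21 and 41, had the highest levels of this gene too. FTH1, the heavy chain of the iron store ferritin, read 1896, 2851, 1703 and 2516 CPM against 917, 932 and 1046 CPM (1.22 ± 0.27, adjusted p = 0.0135). Of 19 tested iron and heme handling genes, 4 were higher in AAC (BLVRB, FTH1, LTF and NCOA4), or 21.1% against 2.25% of all genes tested. In that list 0 were lower and 15 did not pass, with a median of 0.45. The list had 4 calls on day 0 as well, where 12.9% of all genes tested were called, and its day 0 median was 0.57. NCOA4, which carries ferritin to breakdown, had 188, 176, 146 and 173 CPM against 123.8, 126.50 and 124.1 CPM (0.45 ± 0.16, adjusted p = 0.0969), and its call was lost whichever animal was left out.

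The other genes of smallest p that were higher in AAC included surface, signalling and organelle proteins. ITGAL, the alpha chain of the leukocyte integrin LFA-1, was at 657, 796, 519.8 and 632 CPM in AAC and 169.6, 405 and 381 CPM in COMBO (1.03 ± 0.21, adjusted p = 0.0113). COMBO animal 16 had the lowest level, and its 2 pen mates lay nearer to AAC without reaching it. PLEKHB2, a protein of recycling endosomes, had 171, 173, 181 and 166 CPM against 128.1, 115.6 and 120.41 CPM (0.51 ± 0.10, adjusted p = 0.00802). FKBP8, an immunophilin of the outer mitochondrial membrane, had 217, 345, 213 and 371 CPM against 142, 176 and 148 CPM (0.88 ± 0.18, adjusted p = 0.0113). Animals 21 and 41 were again the highest for FKBP8, and also for RANBP10, a Ran-binding protein, at 50.96, 62.15, 42.9 and 92.8 CPM against 42.7, 38.9 and 42.3 CPM (0.59 ± 0.12, adjusted p = 0.0113). ATP5F1E, the epsilon subunit of the mitochondrial ATP synthase, had 113.5, 204, 149 and 162 CPM against 55.3, 48.1 and 73.3 CPM (1.42 ± 0.31, adjusted p = 0.0135), and was the single call among 70 tested respiratory chain genes (1.43%, under the 5.93% of all genes).

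Further genes of the same set were scarce, some of them near the level that 3 counts give, 0.0518 to 0.0848 CPM in these libraries by counting error alone. DUSP26, a protein phosphatase, read 1.47, 10.4, 1.07 and 26.98 CPM in AAC and 0.144, 0.163 and 0.190 CPM in COMBO (5.88 ± 1.23, adjusted p = 0.0113), with AAC animals 21 and 41 the highest. RCAN2, a regulator of calcineurin, had 0.847, 0.885, 0.764 and 0.688 CPM against 0.0479, 0.190 and 0.138 CPM (2.65 ± 0.57, adjusted p = 0.0135), with AAC levels near each other. It was already higher on day 0 (2.27, adjusted p = 0.00724), as was PLEKHB2 (0.27, adjusted p = 0.0729). Among genes without a symbol, LOC112443490 had 63.7, 114.9, 116.2 and 105.5 CPM against 14.5, 20.8 and 27.04 CPM (2.27 ± 0.47, adjusted p = 0.0113). LOC100847410 had 7.32, 6.35, 6.99 and 8.26 CPM against 2.42, 2.80 and 2.70 CPM (1.45 ± 0.29, adjusted p = 0.00807).

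**Figure D2:**
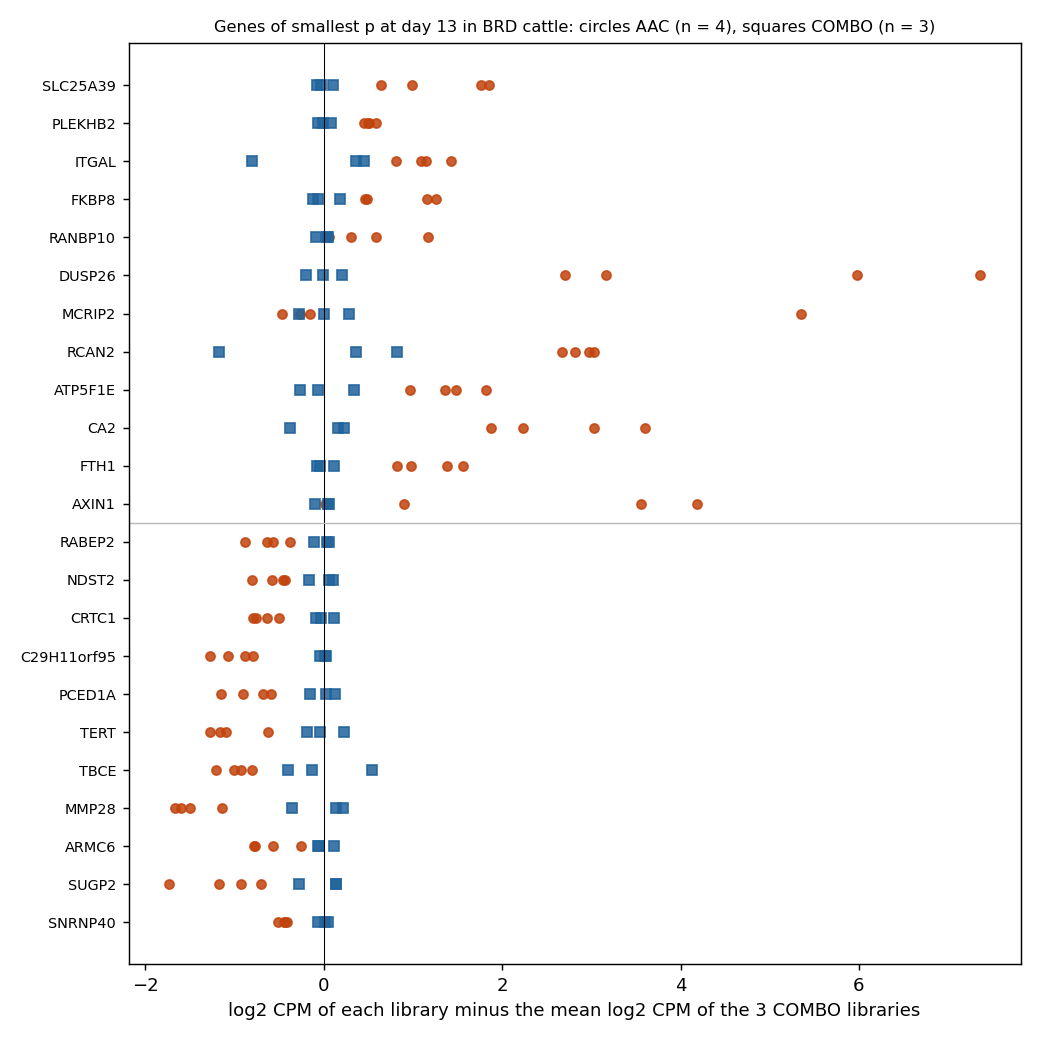
Genes of smallest p in each direction, 12 higher and 11 lower in AAC, as log2 CPM of each library minus the mean log2 CPM of the 3 COMBO libraries, with orange circles for the 4 AAC and blue squares for the 3 COMBO libraries. Groups lay apart in all but MCRIP2 and AXIN1, and the genes lower in AAC differed by -1.48 to -0.46 log2 units.

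The symbols of smallest p that were lower in AAC had log2 fold changes of -1.48 to -0.46, and each of the 11 given here passed in all 7 fits that left out an animal. TERT, the catalytic subunit of telomerase, was measured at 9.66, 10.1, 8.96 and 14.1 CPM in AAC and 19.1, 25.3 and 21.1 CPM in COMBO (-1.03 ± 0.20, adjusted p = 0.00807). MMP28, a secreted metalloprotease, was at 11.96, 11.4, 12.9 and 16.5 CPM against 28.4, 42.01 and 40.02 CPM (-1.48 ± 0.30, adjusted p = 0.0105). Within each group the values of TERT lay close together, and the INR animals spanned the gap, at 12.1 to 21.3 CPM. C29H11orf95 stood at 26.7, 23.1, 32.4 and 30.4 CPM against 57.3, 56.6 and 54.4 CPM (-0.995 ± 0.19, adjusted p = 0.00802). RABEP2, a rabaptin of early endosomes, stood at 56.8, 59.6, 48.1 and 67.96 CPM against 82.4, 91.2 and 92.6 CPM (-0.61 ± 0.12, adjusted p = 0.00802). The remaining 7 were NDST2 (-0.57), a heparan sulfate modifying enzyme, CRTC1 (-0.67), a coactivator of CREB, TBCE (-1.03), a tubulin folding cofactor, SUGP2 (-1.10), SNRNP40 (-0.46), a protein of the U5 spliceosome particle, PCED1A (-0.82) and ARMC6 (-0.58), with no overlap between groups in any of them.

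Part of these lower genes differed on day 0 and part did not. MMP28 was lower by day 0 already (-1.17, adjusted p = 0.0115), and it was also lower on day 60 (-1.32, adjusted p = 0.0828). CRTC1 (-0.81, adjusted p = 0.000208), TBCE (-1.11, adjusted p = 0.000965), SNRNP40 and C29H11orf95 passed on day 0 too. TERT (-0.34, adjusted p = 0.335), RABEP2, NDST2, PCED1A, SUGP2 and ARMC6 did not pass there. The 2 unnamed loci of smallest p, LOC100847831 (-0.70 ± 0.13) and LOC104973431 (-1.36 ± 0.26), both with an adjusted p of 0.00802, did not pass on day 0, where their differences were -0.08 and 0.07.

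MCRIP2 and AXIN1, a scaffold of the Wnt pathway, were among the 12 higher genes but their groups overlapped. MCRIP2 read 11.8, 576, 10.24 and 12.7 CPM in AAC and 11.6, 17.2 and 14.2 CPM in COMBO (3.41 ± 0.73, adjusted p = 0.0128), and without AAC animal 21 its difference was -0.30. AXIN1 read 54.3, 981, 100.7 and 635 CPM against 50.2, 55.73 and 56.03 CPM (3.04 ± 0.66, adjusted p = 0.0135), high in AAC animals 21 and 41 and, at 569 CPM, in INR animal 39. Both genes lie after HBA1 in the order of genes on chromosome 25 of the RefSeq annotation of ARS-UCD2.0, AXIN1 8 places and MCRIP2 24 places on. That led to a look at the whole stretch, after the values had been seen. Of 22 tested genes 1 to 31 places after HBA1, among them the globin gene HBQ1, 20 were higher in AAC and 0 lower. Of 8 tested genes 1 to 10 places before it 0 passed, though the globin genes HBA and HBM among them differed by 2.63 and 3.35. Of 15 tested genes 32 to 60 places after it 0 were higher and 2 lower. In AAC animal 21 each of the 22 genes exceeded 2 times the median of the 14 BRD libraries of day 0, in AAC animal 41 and INR animal 39 11 did, in AAC animal 31 8 and in AAC animal 9 3. Of the 15 genes 32 to 60 places on, 3 did in AAC animal 21 and 2 in INR animal 39. In AAC animals 41, 31 and 9 the number was 0, 1 and 2. Of the 8 genes before HBA1, 3 exceeded 2 times the day 0 median in AAC animal 21. In AAC animals 41, 9 and 31 and INR animal 39, 2 did in each. Genes 1 to 15 places on, such as RAB11FIP3 with 77.2, 3357, 226 and 2312 CPM in AAC and 135, 112.4 and 120.8 CPM in COMBO, were raised in several animals. Genes 18 to 31 places on exceeded that level in AAC animal 21 alone among the 7 animals, where RAB40C stood at 1958 CPM against 44.2 to 48.5 CPM in the other 3 AAC animals and 43.7 to 55.5 CPM in COMBO. These 3 animals, 21, 41 and INR 39, were those with the most haemoglobin counts on day 13 among the 14 BRD cattle, at 6.84, 8.00 and 3.98%. The order did not hold for the other AAC animals. Animal 9, at 3.09%, had 3 of the 22 genes above that level, and animal 31, at 1.22%, had 8. Whether the raised counts of neighbouring genes come from transcripts of those genes was not tested. When the haemoglobin genes and the genes around them were left out before scaling, 961 calls were made, and the 50 tested genes left out had held 24 of the 1096 calls, 22 of them higher. The part of the red cell counts in the other differences was not tested further.

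**Figure D3:**
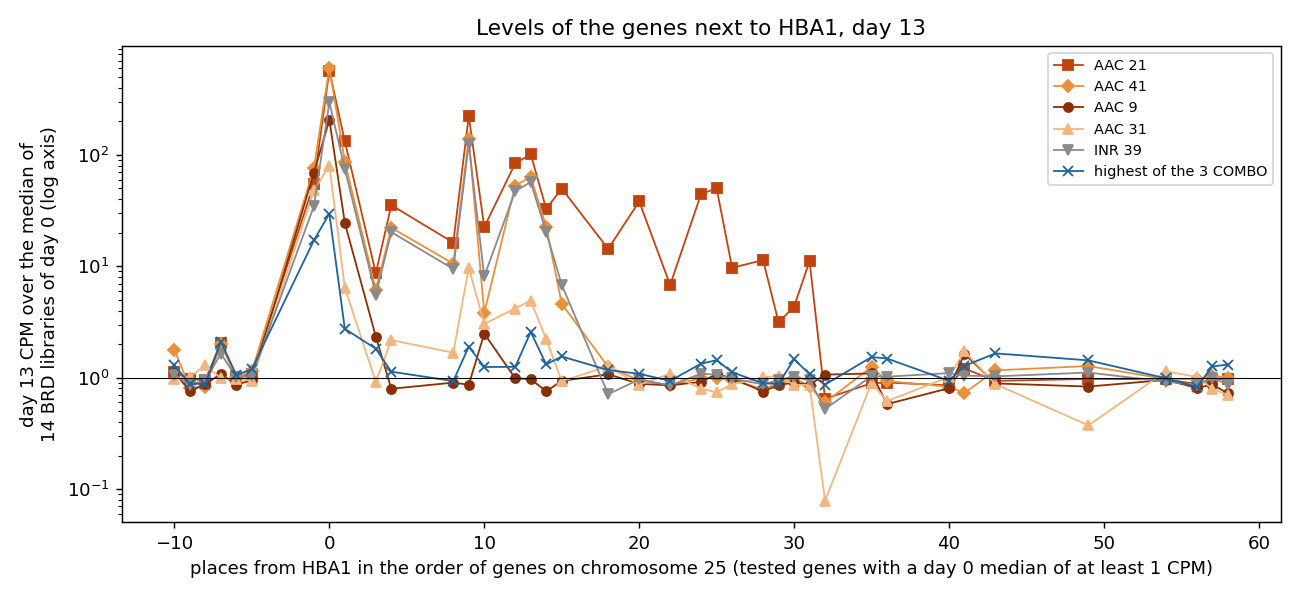
Day 13 CPM of tested genes over their median in the 14 BRD libraries of day 0 (log axis), by place from HBA1 in gene order, for each AAC animal, INR animal 39 and the highest of the 3 COMBO animals. Levels in AAC animal 21 were raised out to 31 places after HBA1 and those of AAC animal 41 and INR animal 39 out to 15 places. Of 15 tested genes 32 to 60 places on, 3 in AAC animal 21 and 2 in INR animal 39 also exceeded 2 times the day 0 median.

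Summed B cell markers were lower in every AAC animal than in any COMBO animal. Of 15 tested B cell markers 3 were lower (20%, against 3.68% of all genes tested) and 0 higher, with a median of -0.79, and 9 had all AAC libraries below all COMBO libraries, as 10.9% of all genes had. Their summed level was 1750.4, 1495, 2554 and 2372 CPM in AAC and 3423, 3321 and 3314 CPM in COMBO. The INR animals ranged from 2459 to 3732 with a median of 3047 CPM. MS4A1, which encodes CD20 and held the largest part of the list's counts, read 370.2, 291, 477 and 477 CPM against 944, 844 and 791 CPM (-1.09 ± 0.32, adjusted p = 0.0554). EBF1, a transcription factor of early B cells, read 22.6, 19.8, 35.3 and 31.6 CPM against 65.32, 57.6 and 53.5 CPM (-1.10 ± 0.33, adjusted p = 0.0564). The calls of MS4A1 and EBF1 were lost without AAC animal 9 or 21 or COMBO animal 16 or 18. This difference was not new on day 13. On day 0 the sums were 1814, 1390.4, 2081 and 2086 CPM in AAC and 3105, 5220.5 and 4149 CPM in COMBO. On that day 13 of the 15 genes were called with a median of -1.40, where 12.9% of all genes tested were called. The lines of the 2 groups did not cross on any of the 5 days. Among healthy cattle on day 13 the sums were 2744 to 4139.9 CPM in 3 AAC and 2392 to 3003 CPM in 4 COMBO animals, which overlapped.

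BOLA-DYB, an MHC class II beta chain, was the single call among 22 tested MHC class II genes (4.55%, near the 5.93% of all genes), at 22.7, 24.9, 52.4 and 39.1 CPM in AAC and 69.99, 88.1 and 105.1 CPM in COMBO (-1.34 ± 0.40, adjusted p = 0.0589). That list had 0 calls without AAC animal 9 or 21 or COMBO animal 18 or 54. Plasma cell, alpha-beta T cell, gamma-delta T cell, natural killer and eosinophil or basophil marker lists had 0 calls by edgeR, at medians of -0.19, 0.44, 0.14, 0.33 and 0.77. Of the 10 cell type sums, 4 did not overlap between groups (erythroid, neutrophil and monocyte higher in AAC, B cell lower), where the exact two-sided permutation test of 4 against 3 animals cannot give a p below 0.0571. Such separation was common, since 20.6% of all genes tested did not overlap. Sums of several lists of other kinds, among them splicing, selenoprotein, cholesterol and glycolysis genes, did not overlap either.

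Genes induced by type I interferon, the alarm signal of virus infection, held 4 calls, all of which were lost without COMBO animal 16. Of 34 tested genes 4 were lower in AAC (11.8%, against 3.68% of all genes tested), 0 were higher and 30 did not pass, with a median of -1.40. The sums were 4014, 6241, 5511 and 4624 CPM in AAC and 33463, 7744 and 4163 CPM in COMBO. COMBO animal 16 stood apart, and COMBO animal 54 lay within the AAC range, so that the groups overlapped. MX1, an antiviral GTPase, read 389, 413, 411 and 552 CPM in AAC and 4504, 817 and 419 CPM in COMBO (-2.12 ± 0.68, adjusted p = 0.0765). IFI44L (-2.49 ± 0.79, adjusted p = 0.0712), USP18, which removes the ubiquitin-like ISG15 (-1.95 ± 0.59, adjusted p = 0.0600), and UBA7, which activates ISG15 (-1.81 ± 0.63, adjusted p = 0.0968), followed the same animals. Without COMBO animal 16, 0 of the 34 genes passed and the median was 0.01. Counts were also 0 without AAC animal 9, 21 or 31, 2 without AAC animal 41 and 9 without COMBO animal 54. On day 0 another pair of COMBO animals was high, with 4502, 39992 and 32596 CPM against 3603, 4518, 6963 and 8864 CPM in AAC, so animal 16 rose after arrival while animals 18 and 54 fell. Interferon-gamma and guanylate-binding genes had 0 calls among 19 tested, with a median of 0.03.

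Of the genes of myeloid cells, those that passed were higher in AAC. LYZ, lysozyme, was measured at 3412, 3637, 1831 and 2739 CPM in AAC and 1162, 1218 and 639 CPM in COMBO (1.53 ± 0.44, adjusted p = 0.0523), and was the single call of 15 tested monocyte markers (6.67%, against 2.25% of all genes tested that were higher, with a list median of 0.60). The summed monocyte level was 5083, 5488, 2987 and 4084 CPM in AAC and 2229.9, 2279 and 1618 CPM in COMBO, of which LYZ alone held 61.6%. Levels of LYZ already lay apart on day 0 (1.82, adjusted p = 0.00908). Of 28 tested granule and cathelicidin genes 3 were higher (LTF, LYZ and RETN, or 10.7%) and 0 lower, with a median of 0.84. LTF, the iron-binding lactoferrin of neutrophil granules, was scarce at 1.37, 2.92, 1.02 and 3.25 CPM against 0.216, 0.190 and 0.449 CPM (2.87 ± 0.91, adjusted p = 0.0726). RETN, resistin, read 11.6, 13.6, 9.62 and 15.3399 CPM against 1.89, 3.26 and 7.38 CPM (1.58 ± 0.50, adjusted p = 0.0720). Among 15 tested neutrophil markers 1 passed (6.67%), PADI4, an enzyme that citrullinates histones, at 61.4, 93.98, 52.3 and 111.9 CPM against 23.1, 25.8 and 25.8 CPM (1.68 ± 0.53, adjusted p = 0.0687). These 4 genes each lost their call without COMBO animal 16 or 18 or AAC animal 21, among others. SPARC passed in the platelet list at 0.274, 137, 0.990 and 6.99 CPM in AAC and 0.670, 1.71 and 0.933 CPM in COMBO (5.04 ± 1.47, adjusted p = 0.0526), from AAC animal 21 above all, while the list's median was -0.77 and CMTM5 was listed at 0 in all 7 libraries.

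Of 34 tested splicing factor genes 10 were lower in AAC, where 3.68% of all genes tested were, and 0 higher, with a median of -0.34, and 19 had every AAC library below every COMBO library, as 10.9% of all genes had. SRSF6, a serine and arginine rich splicing factor, read 313, 304, 247 and 378 CPM in AAC and 467, 486 and 471 CPM in COMBO (-0.61 ± 0.14, adjusted p = 0.0219) and passed in all 7 fits that left out an animal. TRA2A, a regulator of splice sites, read 273, 232, 183 and 306 CPM against 484, 457 and 399 CPM and differed by -0.85. SRSF2, SRSF4, SRSF7, SRSF10, TRA2B, RBM39, SNRNP70 and PRPF3 differed by less, between -0.53 and -0.34. The summed level of the list was 9934, 8823, 8861 and 10132 CPM in AAC and 11347, 11341 and 11020.0 CPM in COMBO, without overlap. Calls fell to 4 without AAC animal 9, 2 without AAC animal 21, 1 without AAC animal 31, 3 without COMBO animal 16, 1 without COMBO animal 18 and 5 without COMBO animal 54. SRSF6 had not differed on day 0 (-0.14, adjusted p = 0.607). Of the 34 genes of the list 8 had, where 12.9% of all genes tested differed on day 0.

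**Figure D4:**
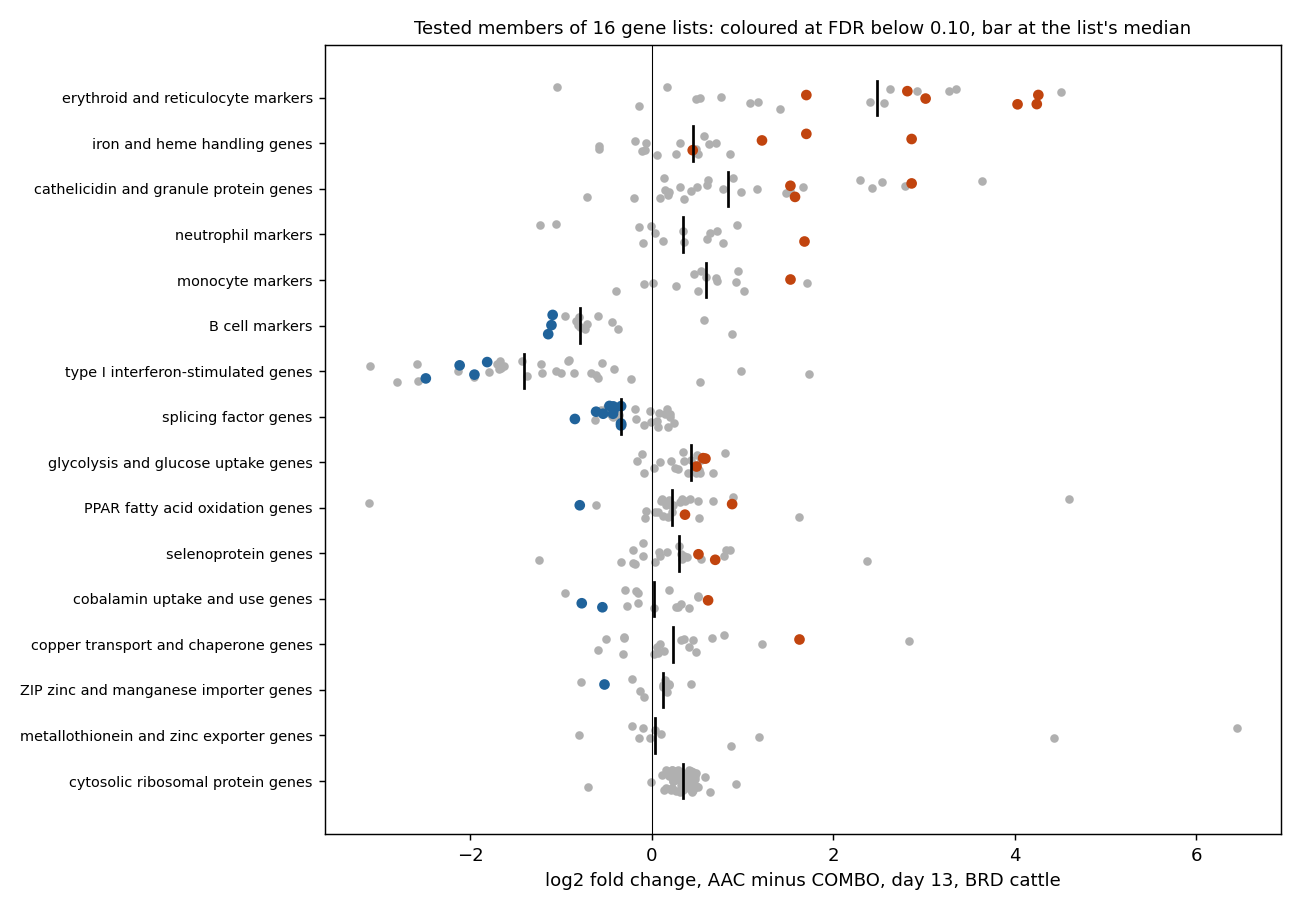
Log2 fold changes of AAC over COMBO on day 13 for the tested members of 16 gene lists, 1 point per gene, coloured where FDR was below 0.10 (orange higher and blue lower in AAC) with a bar at the list's median. Erythroid genes lay furthest to the right with a median of 2.49, type I interferon genes furthest to the left with one of -1.40, and 75 of 77 ribosomal protein genes lay above 0 with no call.

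Of 23 tested glycolysis genes 3 were higher in AAC (13.0%, against 2.25% of all genes tested) and 0 lower, with a median of 0.44, and 13 had all AAC libraries above all COMBO libraries, as 9.76% of all genes had. The count of calls was 0 without COMBO animal 16, 18 or 54, 1 without AAC animal 9, 21 or 31 and 4 without AAC animal 41. LDHA, lactate dehydrogenase, had 181, 206, 178 and 172 CPM in AAC and 116.5, 127.53 and 122.3 CPM in COMBO (0.59 ± 0.17, adjusted p = 0.0489). TPI1 differed by 0.57 ± 0.19 (adjusted p = 0.0835) and PGK1 by 0.49 ± 0.15 (adjusted p = 0.0659). LDHA and TPI1 had differed by the same amount or nearly so on day 0 (0.56 and 0.56). On that day 10 of the 23 glycolysis genes were called, more than on day 13, with a median of 0.37. Of all genes tested 12.9% were called on day 0. UCP2, a mitochondrial carrier, read 851, 1041, 813 and 844 CPM against 524, 462 and 453 CPM (0.89 ± 0.28, adjusted p = 0.0704), ACSL1, which activates fatty acids, 0.37 ± 0.13 (adjusted p = 0.0996), and CPT1B, a fatty acid carrier enzyme, was lower by -0.79 ± 0.27 (adjusted p = 0.0943), out of 29 tested PPAR and fatty acid oxidation genes. These 3 calls (10.3%, beside 5.93% of all genes tested) fell to 0 without AAC animal 21 or 31 or COMBO animal 16, 18 or 54, to 1 without AAC animal 9 and to 2 without AAC animal 41.

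Among genes tied to the supplemented elements and to iron, the share called was 21.1% of the iron and heme list, 17.6% of the cobalamin list, 8.70% of selenoprotein genes, 8.33% of ZIP importers, 5.00% of copper genes, 4.35% of superoxide dismutase and antioxidant enzyme genes and 0% of metallothionein and zinc exporter genes, beside 5.93% of all genes tested. Of these calls BLVRB and FTH1 passed in all 7 fits that left out an animal. The cobalamin list had 0 calls without AAC animal 9, 21 or 31 or COMBO animal 18. It had 1 lower call without COMBO animal 16 or AAC animal 41, and 1 higher and 1 lower without COMBO animal 54. Of 23 selenoprotein genes 2 were higher. That count was 0 without AAC animal 9, 21 or 31 or COMBO animal 16 or 18. It was 1 without AAC animal 41 or COMBO animal 54. GPX4, a glutathione peroxidase that protects membrane lipids, read 27.9, 33.03, 28.8 and 30.3 CPM in AAC and 16.8, 19.02 and 19.6 CPM in COMBO (0.70 ± 0.24, adjusted p = 0.0946). SEPHS2, which makes the selenium donor of selenoproteins, read 85.7, 83.02, 103.3 and 76.4 CPM against 60.3, 54.4 and 67.9 CPM (0.52 ± 0.16, adjusted p = 0.0597). COMBO cattle, which also got selenium in the drench, were the lower group for both. The other 21 selenoprotein genes did not pass, 7 of the 23 were below 0, and 3 had been called on day 0. Whether the drench had a part was not tested. Among 17 cobalamin genes PCCB, a subunit of propionyl-CoA carboxylase, was higher (0.62 ± 0.21, adjusted p = 0.0909), while MMACHC, which processes cobalamin (-0.54 ± 0.17, adjusted p = 0.0757), and MTR, methionine synthase (-0.77 ± 0.24, adjusted p = 0.0710), were lower. Among 20 copper genes COX19, an assembly factor of cytochrome oxidase, was higher at 33.6, 26.5, 19.7 and 34.5 CPM against 19.3, 3.83 and 4.72 CPM (1.62 ± 0.56, adjusted p = 0.0941), with COMBO animal 16 near the AAC range. Among 12 ZIP importer genes SLC39A10, a zinc importer, was lower at 45.43, 37.4, 47.03 and 45.37 CPM against 54.7, 61.9 and 72.8 CPM (-0.53 ± 0.17, adjusted p = 0.0763). Metallothionein and zinc exporter genes had 0 calls among 11 tested, with a median of 0.04.

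Across the 41 lists, 54 of 902 distinct tested genes passed, 29 higher and 25 lower, close to the background of 5.93%. The members of the remaining lists that passed were RELA and TNIP1 (higher) and CXCL2 (lower) of the TNF and NF-kB list, IL10RA (higher) and PIM3 (lower) of the STAT list, TRAF6 of the Toll-like receptor list, and NR4A1 (higher) and EGR3 (lower) of the immediate early list. These and the other list members that passed outside the naming rule were chosen after their values were seen. TRAF6, an adaptor of Toll-like receptor signals, read 21.3, 20.9, 22.1 and 20.8 CPM in AAC and 18.01, 16.8 and 17.7 CPM in COMBO (0.28 ± 0.08, adjusted p = 0.0483), a small difference with tight groups. Its list had 0 calls without AAC animal 31 or COMBO animal 18. EGR3, an activity-induced transcription factor, read 4.33, 1.96, 3.87 and 3.85 CPM against 6.94, 8.37 and 11.5 CPM (-1.35 ± 0.40, adjusted p = 0.0567) and was lower on day 0 as well (-2.01, adjusted p = 0.00157). The immediate early list had 0 lower calls without AAC animal 21 or 31 or COMBO animal 18 or 54. No call fell in the alarmin, IL-1, glucocorticoid, MHC class I, heat shock, endoplasmic reticulum stress, cholesterol, cell cycle, ribosomal, proteasome, regulatory T cell or lipoxygenase lists by edgeR. Ribosomal protein genes had a median of 0.35 with 75 of 77 above 0, and AAC and COMBO libraries overlapped in each of them.

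The same contrast was then set beside healthy cattle of day 13, 3 AAC and 4 COMBO animals. There edgeR called 0 of 18937 genes (0%) between AAC and COMBO, with 1112 at an unadjusted p under 0.05, and no other tool was run on it. The difference between BRD and healthy cattle in that contrast was tested itself, and 86 genes passed (0.454%), 40 with a higher and 46 with a lower difference of AAC over COMBO in BRD. DESeq2 called 434 and limma 340. Without 1 animal at a time this count ran from 0, without healthy AAC animal 49, to 243, without healthy COMBO animal 42. C29H11orf95 had the smallest p, with a difference between the contrasts of -1.43 ± 0.27 (adjusted p = 0.0129). Its levels in healthy cattle were 39.5 to 58.5 CPM in AAC and 31.3 to 38.9 CPM in COMBO, the opposite order to BRD cattle. RASGRP3, an activator of Ras in B cells, had 63.7, 48.1, 89.6 and 66.8 CPM in AAC and 138, 113.5 and 102.8 CPM in COMBO with BRD, against 113.3 to 163 CPM and 73.3 to 89.5 CPM in healthy cattle (-1.53 ± 0.31, adjusted p = 0.0308). LOC101902293 was scarce, and the 0 counts in AAC animal 21 allow up to 0.0804 CPM, at 0.473, 0, 0.424 and 0.495 CPM in AAC and 2.66, 1.36 and 2.32 CPM in COMBO with BRD (-3.49 ± 0.72, adjusted p = 0.0308). EBF1 (-1.71 ± 0.45, adjusted p = 0.0913) also had the lower difference in BRD cattle, as did MMP28 (-2.05 ± 0.53, adjusted p = 0.0883). ITGAL (1.14 ± 0.31, adjusted p = 0.0913) and FKBP8 (0.91 ± 0.25, adjusted p = 0.0951) had the higher one, with levels in healthy cattle of 158 to 173 CPM in AAC and 147 to 183 CPM in COMBO for FKBP8. SLC25A39 did not pass (adjusted p = 0.106). Erythroid sums in healthy cattle were 350.3 to 8613 CPM in AAC and 307 to 10553 CPM in COMBO and overlapped.

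Without the block, the genes of smallest p for the change from day 0 to day 13 were RANBP10 (0.81 ± 0.17, adjusted p = 0.165), MPV17, a mitochondrial inner membrane protein (-0.85 ± 0.18, adjusted p = 0.165), and SLC25A39 (1.49 ± 0.33, adjusted p = 0.184), none of which passed. With animal as a block, the genes whose change from day 0 to day 13 differed most by p were TRIM10, with the more positive change in AAC (1.84 ± 0.30, adjusted p = 0.00316), and NOXA1, an activator of NADPH oxidase (-1.23 ± 0.23, adjusted p = 0.0332). RANBP10 (0.78 ± 0.16) and MPV17 (-0.84 ± 0.17) followed, both with an adjusted p of 0.0481. TRIM10, a gene of red cell development, stood on day 13 at 26.0, 25.2, 16.3 and 63.6 CPM in AAC and at 16.1, 13.2 and 19.39 CPM in COMBO, where the groups overlapped and the day 13 contrast did not pass (1.01 ± 0.42, adjusted p = 0.171). Of these 4 genes, RANBP10 was the one that also passed on day 13.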

How the data were processed

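Whole blood RNA was collected in Tempus tubes and sequenced as stranded mRNA libraries on a NovaSeq instrument, and the 129 libraries of the series were used. The authors trimmed reads with Trimmomatic (0.39 in the submitters' processing notes), mapped them with HISAT2 (2.1.1 there) against the ARS-UCD1.3 assembly, built transcripts in StringTie 2.2.0 and ran its prepDE script. What the authors deposited are unnormalized counts for 32395 genes, which that script derives from coverage and lengths, so 1 count is not 1 read. Libraries were pooled over lanes, and the authors removed the day 13 library of healthy AAC animal 48. Total counts ran from 31613545 to 61692136, and a level of 3 counts was taken as the floor.

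Counts were fitted in R 4.3.3 with edgeR 4.0.16 (TMM factors, common dispersion of 0.162, quasi-likelihood F-tests, Benjamini-Hochberg adjustment, FDR below 0.10) over the 70 BRD libraries as 15 combinations of treatment and day, after filterByExpr. The comparison with healthy cattle used all 129 libraries and 30 combinations. The adjusted p-values of single genes are from these fits unless another tool is named. DESeq2 1.42.0, limma 3.58.1 with voom, RLE factors, a trended dispersion, other filters and other sets of libraries were alternatives, and the fitting steps were tested on simulated data. Fits without the haemoglobin genes and their neighbours, and without AAC animal 21 and COMBO animal 16 together, were added after seeing the data. Gene names were used as deposited, and gene order came from RefSeq ARS-UCD2.0.

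The animals, gene lists and tests were chosen with earlier results of these data known, so list counts stand without a test. The naming rule took the 12 symbols of smallest p in each direction, the 4 unnamed loci of smallest p, the 2 genes of smallest p and the most abundant gene of each list, and the 3 genes of smallest p in each of the other 2 tests, the change from day 0 and the comparison with healthy cattle. Results for 3 genes are not reported here. Day 0 and day 13 libraries are paired by animal. Their deviations from the group means correlated at -0.03 to 0.47 with a median of 0.32, and at over 0.1 in 13 of 14 pairs.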

Additional observations from a re-analysis of the deposited data

Results flagged for a closer look

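AAC animal 21 stood far from the other 3 AAC animals in several measures. Its levels were 576 CPM for MCRIP2, 889 CPM for WDR90, 1958 CPM for RAB40C and 499 CPM for WDR24, all genes 20 to 31 places after HBA1. It also had 137 CPM of SPARC, 400.3 CPM of IL10RA, 1041 CPM of UCP2, a summed neutrophil level of 4458 CPM and 0 CPM of LOC101902293. AAC animal 41 stood apart with 552 CPM of MX1 and a summed gamma-delta T cell level of 1160.3 CPM. Over all the named genes and lists examined, 11 sets of 4 AAC values (10.8% of those checked) had such an animal. Many of these genes were chosen for their values in these same animals, so no rate by chance can be set beside that share. Of the 11 sets, 4 are neighbouring genes of the same animal and so not independent.

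In 17 named genes the AAC over COMBO difference of day 13 was itself different between BRD and healthy cattle (edgeR, FDR below 0.10). Over all genes tested the share was 0.454%. Many named genes were chosen for a small p in BRD cattle, which is 1 side of this test. Others were chosen for a small p in this test itself or as neighbours of HBA1. Many such calls among them were therefore built in, and their number is no result about these genes. The difference between the log2 fold changes, BRD minus healthy, was 1.14 for ITGAL, 0.91 for FKBP8, 0.58 for RANBP10, 2.94 for RCAN2 and 0.90 for TNIP1. It was -1.43 for C29H11orf95, -2.05 for MMP28, -0.51 for SNRNP40, -1.53 for RASGRP3, -3.49 for LOC101902293 and -0.91 for MMACHC. For the B cell gene EBF1 it was -1.71. Genes after HBA1 gave 3.58 for MCRIP2, 3.05 for AXIN1, 3.57 for WDR90, 3.52 for RAB40C and 1.79 for WDR24, and all but AXIN1 of these 5 rested on AAC animal 21. Healthy COMBO animals were all in pen 5 and COMBO animals with BRD in pen 6, so disease and pen cannot be told apart in COMBO.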

How the results depend on the processing

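On day 13, 5.93% of genes tested (1096) differed. The share was 5.74% with RLE factors, 5.48% with a trended dispersion, 7.41% under a stricter filter on low counts, 5.22% with limma and 8.41% with DESeq2, all within 1.5 times. It was 1.92% (355 genes) at an FDR below 0.05, 2.40% (634) without a filter, 0.781% (69 higher, 59 lower) with the 7 libraries alone, 3.69% (631) with the 14 BRD libraries of day 13, 9.29% (1759) with all libraries of the series and 0.0644% (12) with the AAC cattle of pen 8 alone. Leaving out 1 animal gave 1.05 to 5.40% (197 to 992 genes), and leaving out AAC animal 21 and COMBO animal 16 together, added after seeing the data, gave 0.654%, of which 19 genes were higher. The 416 higher and 680 lower calls became 228 and 142 without AAC animal 31 and 83 and 281 without COMBO animal 16. The 54 list genes called became 92 with DESeq2.

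With the pairing of days by animal as a replicate block, 219 genes (1.19%) differed in their change from day 0. Without the block that count was 0, with limma 168, with DESeq2 36, and without 1 animal 0 to 416, where COMBO animal 16 gave the 416 and the other animals at most 2. The 86 genes that differed between BRD and healthy cattle became 4 at an FDR below 0.05, 12 without a filter, 340 with limma and 434 with DESeq2. Without 1 animal they ran from 0 to 243, with 45, 4, 187 and 37 without AAC animal 9, 21, 31 or 41, 1, 26 and 86 without COMBO animal 16, 18 or 54, 9, 24 and 0 without healthy AAC animal 34, 46 or 49, and 15, 8, 243 and 5 without healthy COMBO animal 3, 6, 42 or 57. The cause was not tested.

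The direction of 4 genes was reversed without AAC animal 21. Over the 7 fits that left out 1 animal, MCRIP2 ran from -0.30 to 3.84, WDR90 from -0.48 to 3.77, RAB40C from -0.088 to 3.84 and WDR24 from -0.23 to 2.12. Over the 91 named genes and those 7 fits, a call was lost 255 times. DESeq2 gave no adjusted p for these 4 genes. The difference that 4 against 3 animals can detect at a given count was not measured.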

Other observations

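Platelet markers summed to 2179, 2431, 3702 and 1819 CPM in AAC and 3366, 3860.2 and 1786 CPM in COMBO, and gamma-delta T cell markers to 650.4, 653, 649.5 and 1160.3 CPM and 609, 738 and 1029 CPM. Alpha-beta T cell markers summed to 3447, 2780.4, 3903 and 3418 CPM in AAC and 2572, 2408 and 3225 CPM in COMBO, and all 3 lists overlapped between groups. Cytosolic ribosomal protein genes summed to 40789, 44173, 63149 and 46921 CPM in AAC and 36226, 33375 and 46742 CPM in COMBO, with the highest value in AAC animal 31, the AAC animal with the lowest haemoglobin share.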
